A study of Mus musculus with 6 samples.

Results

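Cytosolic ribosomal proteins are the protein building blocks of the ribosomes that translate nuclear-encoded mRNAs. The genes described here were taken by symbol, as protein-coding genes whose names begin with Rpl or Rps followed by a digit, a, p or sa, without the 10 Rps6k kinase genes and without 36 pseudogene rows. This gave 89 of the 27179 gene rows of the table. They comprised 77 core genes, of which 46 encode proteins of the large and 31 of the small subunit, 11 paralogs and retrogenes, and Rps19bp1, which encodes a binding partner of a ribosomal protein and is no ribosomal protein itself. Fau and Rack1 also encode ribosomal proteins, but their symbols fall outside the rule.

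RNA was measured in 3 libraries of butyrate-treated cells and 3 control libraries. All 6 came from transgenic gBT-I mice, whose CD8+ T cells carry a T cell receptor for a herpes simplex virus glycoprotein B peptide, and the labels give no age, sex or dose of butyrate. In both groups whole spleen cells were activated in culture with the peptide and lipopolysaccharide (LPS), received IL-2 between day 2 and day 5, and were collected on day 6. The treated cultures also had butyrate, a short-chain fatty acid that inhibits histone deacetylases, from day 3, while controls had none. The labels mention no cell sorting and do not tie the replicate numbers to separate mice, so p-values reflect no more than the spread among these libraries, and that spread may be technical.

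A ribosome is assembled from several RNAs and many small basic proteins, and the genes for these proteins are scattered over the genome and transcribed at high rates. Their mRNAs begin with a run of pyrimidines, the terminal oligopyrimidine or TOP motif, through which growth signals sent by the kinase mTOR control their translation. Activated T cells enlarge and divide quickly, and make many new ribosomes as they do so. Mammalian genomes also hold many processed copies of these genes, so that short reads from one gene can match several others.

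Butyrate libraries held 5383380 to 5809517 counts and control libraries 5415021 to 6244350. T cell markers summed to 8104 to 9576 CPM (a gene's counts relative to its library's total, adjusted with TMM factors) with butyrate and 9316 to 9483 CPM in control, with Cd8a at 379 to 489 and 385 to 505 CPM. Of the 15 T cell markers edgeR called 0 higher and 6 (40%) lower, against 23.5% higher and 22.5% lower among all genes tested. At an unadjusted p under 0.05, 0 were higher and 9 lower, against 3223 and 3075 of all 11740 genes tested. With the replicate number as a block 1 was higher and 9 were lower, against 27.4% and 26.4% of all genes tested. Markers called lower without the block included Trbc1 (107 CPM with butyrate and 262 CPM in control) and Cd247 (213 and 327 CPM). Markers of other spleen cells summed to 194 to 244 CPM with butyrate and 59.9 to 124 CPM in control. Of these 25 markers, 12 passed the filter for low counts and were tested. That filter keeps a gene that a single group expresses, so a marker scarce in control could enter through the butyrate libraries alone. The shares among the tested markers therefore do not describe the whole list. EdgeR's adjusted p called 8 of the 12 (66.7%) higher and 0 lower (8 and 0 at an unadjusted p under 0.05). None of the 25 was at 0 in all libraries. Itgam, an integrin gene of myeloid and NK cells, averaged 44.1 CPM with butyrate and 4.08 CPM in control, and the class II gene H2-Ab1 38.3 and 8.95 CPM. The part of those cells in the values below was not tested. In such bulk samples fewer cells of a type and less RNA per cell cannot be told apart.

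Most ribosomal protein genes had somewhat more RNA with butyrate, and none was lower by the test. Of the 85 members tested, 47 were higher and 0 lower at an edgeR adjusted p under 0.05, that is 55.3% higher, against 23.5% of all 11740 genes tested that were higher and 22.5% that were lower. At an unadjusted p under 0.05, 60 members were higher and 0 lower, against 3223 higher and 3075 lower of all 11740 genes tested. DESeq2 and limma voom also called 0 members lower. The fitted change was positive for 82 members and negative for 3, among them Rps19 and Rps29 (named after its value was seen). In 64 members every butyrate library stood above every control library, against 28.9% of all genes tested, and in 1 member every butyrate library stood below, against 28.2%. Leaving out control replicate 3 reduced the higher members to 30, of which 28 were among the 47. With the replicate number as a block 54 were higher and 1 was lower, against 27.4% and 26.4% of all genes tested.

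Most of the changes were small and alike in size. Across the 77 core genes the median log2 fold change was 0.31, a 1.24-fold difference, with quartiles of 0.22 and 0.44. For all genes tested the median was 0, with quartiles of -0.31 and 0.36. The large subunit genes had a median of 0.31, with 27 of 46 higher, and the small subunit genes a median of 0.32, with 16 of 31 higher. Other genes of at least 100 CPM had a median of -0.08, with 18.6% higher and 32.3% lower, while 24 of the 33 core genes at that level were higher.

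**Figure D1:**
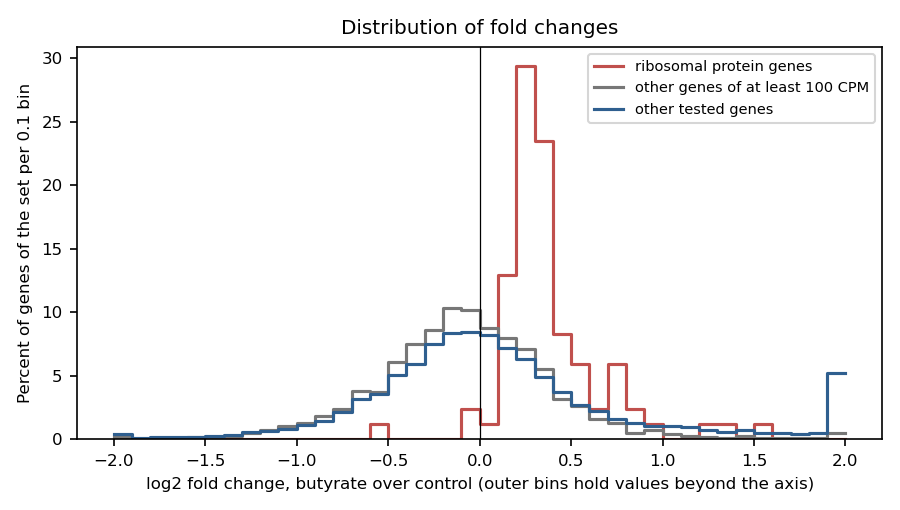
Distribution of log2 fold changes, butyrate over control (x axis), as the percent of genes in each bin of 0.1 (y axis), for the 85 tested ribosomal protein genes (red), other genes of at least 100 CPM (grey) and all other tested genes (blue). Most ribosomal protein genes lie in a narrow peak right of 0, with quartiles of 0.22 and 0.44, where the other genes spread widely on both sides.

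**Figure D2:**
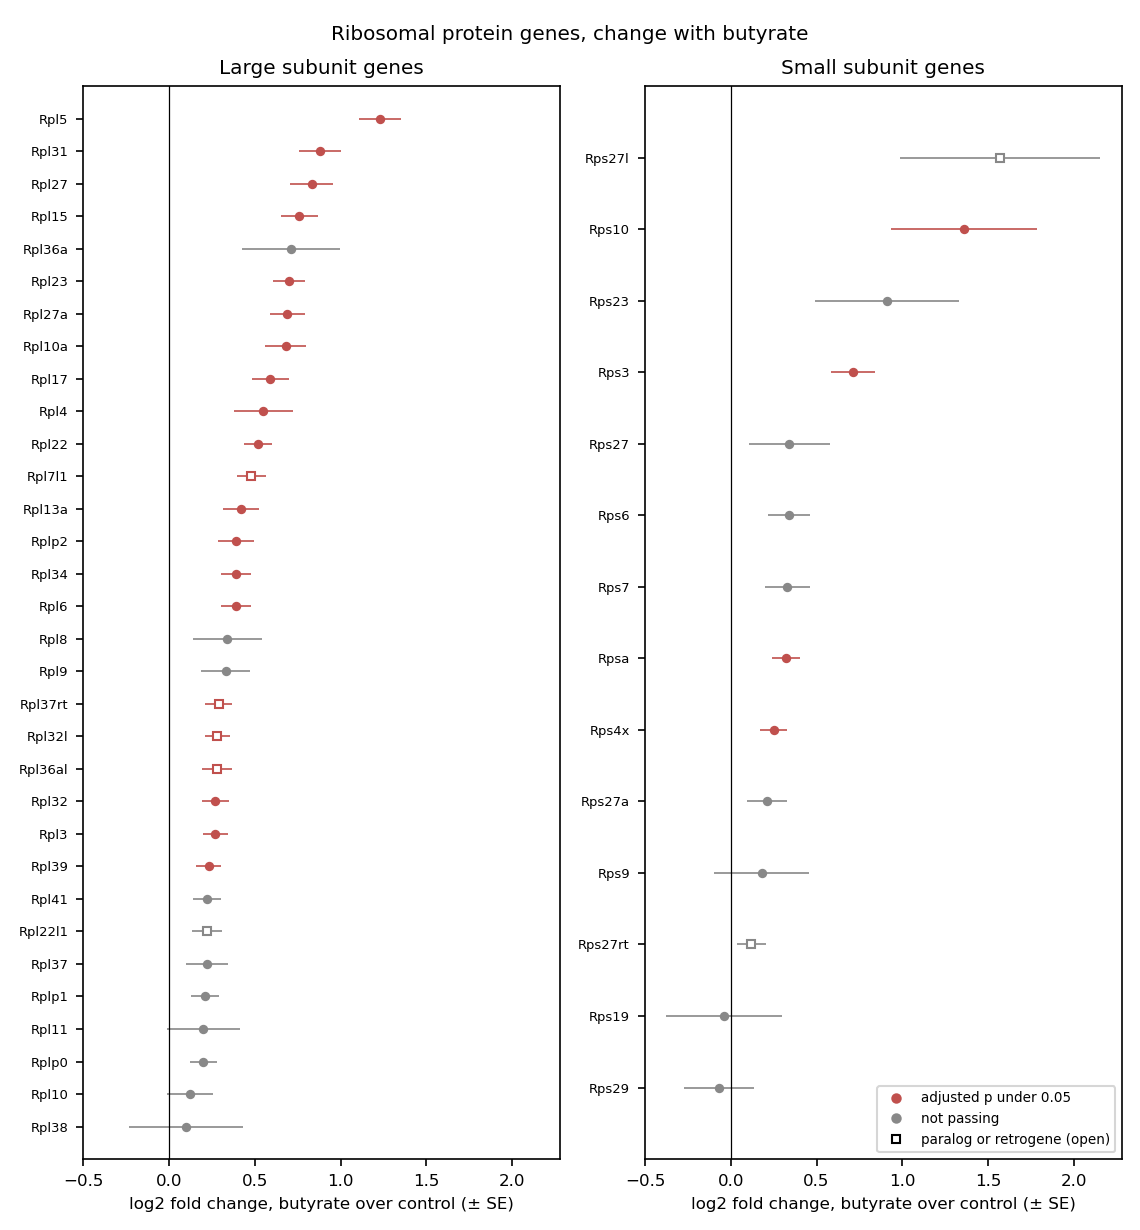
Log2 fold change of the tested large subunit genes (left) and small subunit genes (right) that are named in the text, butyrate over control, with bars of 1 SE. Red points passed an edgeR adjusted p of 0.05, grey points did not, and open squares are paralogs or retrogenes. Rps29 and Rps19 lie just left of 0, and Rps27l and Rps10 farthest right with wide bars.

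Summed over the 77 core genes, ribosomal protein mRNAs took 2.06%, 2.10% and 1.97% of all counts in the butyrate libraries and 1.45%, 1.65% and 1.57% in the control libraries. The groups did not overlap, and the ratio of the means was 1.31 (2.04% ± 0.0656 with butyrate and 1.56% ± 0.101 in control, SD, n = 3 each). The large subunit genes took 1.13% with butyrate and 0.882% in control, a ratio of 1.28, and the small subunit genes 0.911% and 0.675%, a ratio of 1.35. The balance of large over small subunit counts was 1.19, 1.26 and 1.28 with butyrate and 1.34, 1.35 and 1.24 in control, so the groups overlapped. Shares were set by few genes, since the 5 most abundant together held 40.7% of the CPM of the core genes and the top 20 genes held 79.1%.

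**Figure D3:**
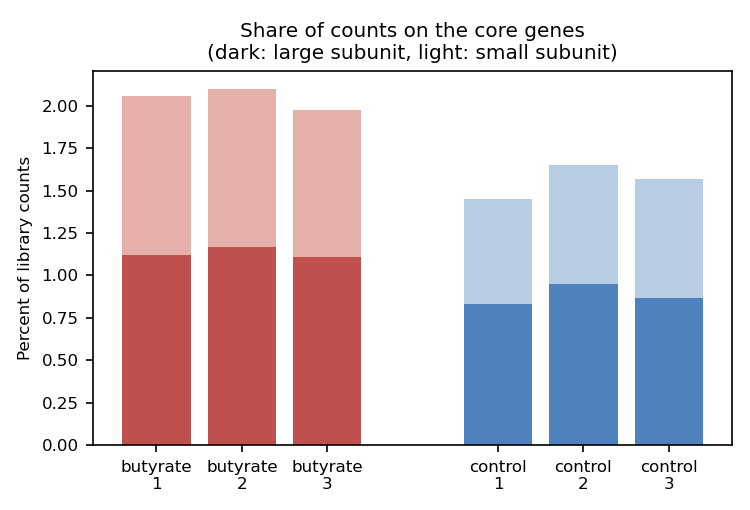
Percent of each library's counts that fell on the 77 core ribosomal protein genes, split into large subunit (dark) and small subunit (light) genes, for the 3 butyrate libraries (red, left) and the 3 control libraries (blue, right). Each butyrate bar, at 1.97% or more, is taller than each control bar, at 1.65% or less.

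The largest rise among the large subunit genes was that of Rpl5, which encodes the protein that binds the smallest ribosomal RNA and, with it, can restrain the p53 regulator Mdm2. Rpl5 (gene 100503670, chromosome 5, 107900508 to 107909005) stood at 58.3, 72.7 and 62.5 CPM with butyrate and at 25, 31.3 and 26.4 CPM in control. Every butyrate library held well above the highest control, a 2.34-fold difference (log2 fold change 1.23, SE 0.124, edgeR adjusted p = 0.000137). Rpl11, whose protein joins the same complex with the RNA and Mdm2, had 5.55, 6.88 and 8.13 CPM with butyrate and 5.58, 6.12 and 6.16 CPM in control. Its groups overlapped and it did not pass the test (edgeR adjusted p = 0.468 for a log2 fold change of 0.20, SE 0.213).

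Rpl31, Rpl27 and Rpl15, further large subunit genes, rose alongside Rpl5. Rpl31 (chromosome 1, 39367851 to 39371911), whose protein sits near the exit of the nascent chain tunnel, had 42.2, 53.1 and 46.0 CPM with butyrate and 22.9, 26.3 and 27.4 CPM in control. Rpl27 (chromosome 11, 101442245 to 101445596) had 20.5, 20.6 and 22.0 CPM with butyrate and 13.0, 11.3 and 11.2 CPM in control. Rpl15 (chromosome 14, 18267823 to 18270986) had 85.3, 106 and 98.3 CPM with butyrate and 51.8, 59.7 and 59.5 CPM in control. None of the 3 showed an overlap of groups, and the log2 fold changes were 0.88, 0.83 and 0.76 (SE 0.123, 0.127 and 0.106, edgeR adjusted p = 0.000585, 0.000911 and 0.000604).

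In the small subunit Rps10 had the largest fitted rise of the core genes, at a low level. Rps10 (chromosome 17, 27630415 to 27635244), whose protein lies at the mRNA entrance and is marked with ubiquitin when ribosomes collide, had 9.43, 20.3 and 6.28 CPM with butyrate and 3.78, 6.12 and 4.22 CPM in control. The groups barely parted, and butyrate replicate 2 stood far above its neighbours (log2 fold change 1.36, SE 0.426, edgeR adjusted p = 0.0282). Without that library the log2 fold change was 0.74 (adjusted p = 0.0959), and without control replicate 1 or 3 the adjusted p was 0.0781 and 0.0753. Limma voom put it at 0.0573, within a range of 0.00183 to 0.0959 over the alternatives.

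The start regions of these 5 genes are shown because transcripts of this family are defined by their first bases. Each line gives 50 bases of the sense strand from RefSeq GRCm38.p6, from 30 before to 20 after the annotated start, and capitals mark the longest run of C or T that reaches within 5 bases of that start.
Rpl5, chr5:107900498-107900547, plus strand: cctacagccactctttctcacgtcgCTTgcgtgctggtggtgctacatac
Rpl31, chr1:39367821-39367870, plus strand: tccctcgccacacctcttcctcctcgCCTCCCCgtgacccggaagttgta
Rpl27, chr11:101442215-101442264, plus strand: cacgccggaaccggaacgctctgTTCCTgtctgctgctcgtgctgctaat
Rpl15, chr14:18270967-18271016, minus strand: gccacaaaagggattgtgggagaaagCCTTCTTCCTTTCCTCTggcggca
Rps10, chr17:27635225-27635274, minus strand: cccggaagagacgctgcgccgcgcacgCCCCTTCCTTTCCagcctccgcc
The runs measured 3, 7, 5, 17 and 13 bases in that order, so the genes that rose most did not share a long run at the annotated start. The start given for Rpl5 differs from the first base of its gene entry, and a run describes the letters at 1 annotated start, which need not be the start used in these cells.

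A run of at least 8 pyrimidines within 5 bases of the start was found in 26 of the 69 members with a promoter entry (37.7%), against 11.4% of all 27025 promoters and 12.0% of those of tested genes. Of the 22 core genes with such a run 15 were higher, with a median log2 fold change of 0.36, and of the 35 with a shorter run 19 were higher, with a median of 0.33. The sequence CCGGAAG, the core letters bound by ETS family factors, was searched on both strands of 300 bases (250 before to 50 after the start). It was present in 42.1% of core promoters, against 9.93% of all and 21.8% of tested genes' promoters. Core genes with it had a median log2 fold change of 0.33 and those without it 0.34.

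The genes with the most RNA included Rps3, Rpl4, Rpl8 and Rpl41, and they differed in how clearly they changed. Rps3 (chromosome 7, 99477896 to 99483709), whose protein forms part of the mRNA entry channel, had 2777, 2068 and 2025 CPM with butyrate and 1432, 1416 and 1364 CPM in control. The groups were far apart (log2 fold change 0.71, SE 0.129, edgeR adjusted p = 0.00234). Rpl41, which encodes a very short basic peptide, had 1116, 1074 and 1097 CPM with butyrate and 937, 986 and 892 CPM in control, a small difference without overlap that did not pass (log2 fold change 0.22, SE 0.0821, edgeR adjusted p = 0.0518). It passed in 7 of the alternatives (DESeq2, limma voom, scaling by total counts, upper quartile, RLE or TMM without members, and a stricter filter of 5 CPM in 3 libraries), and the range was 0.0149 to 0.153.

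Rpl4, whose protein lines the exit tunnel, had 2025, 2347 and 1486 CPM with butyrate and 1232, 1558 and 1224 CPM in control. Its groups overlapped and it passed (log2 fold change 0.55, SE 0.170, edgeR adjusted p = 0.0277), though not in 4 of the 6 fits that left out a library (butyrate 1 or 2, control 1 or 3), where the adjusted p reached 0.102. Rpl8, whose protein lies close to the peptidyl transferase centre, had 1455, 1828 and 1881 CPM with butyrate and 913, 1585 and 1572 CPM in control. Control replicate 1 was low, and the gene did not pass (log2 fold change 0.34, SE 0.203, edgeR adjusted p = 0.197), though with the replicate block the adjusted p was 0.0193, from a range of 0.0193 to 0.467 over the alternatives.

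**Figure D4:**
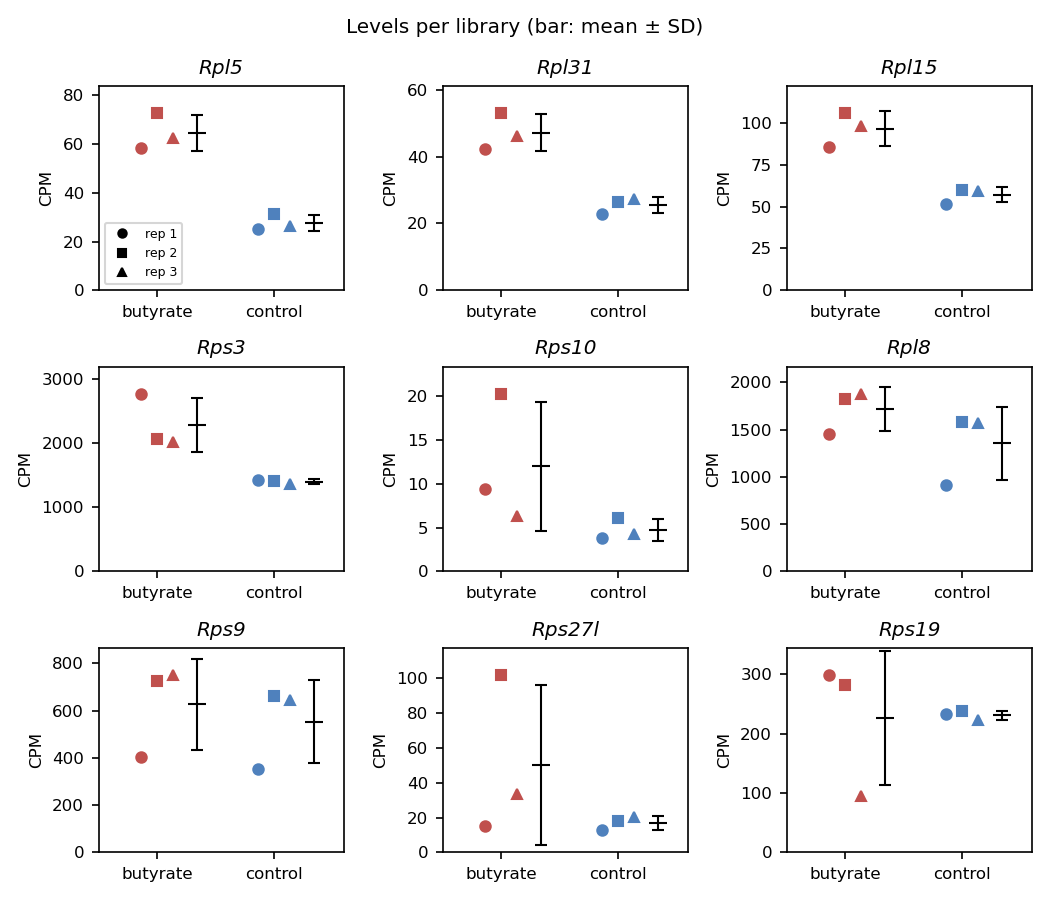
CPM per library of 9 ribosomal protein genes (y axes, each from 0), with butyrate libraries (red) left of control libraries (blue), replicate numbers as shapes and bars of mean ± SD (n = 3). Rpl5, Rpl31, Rpl15 and Rps3 are separated cleanly, while single libraries stand apart for Rps10, Rpl8, Rps9, Rps27l and Rps19.

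Rps19, the gene most often mutated in Diamond-Blackfan anaemia, had 299, 282 and 95.7 CPM with butyrate and 232, 238 and 223 CPM in control. Of the butyrate libraries 2 were above and 1 far below all controls (log2 fold change -0.04, SE 0.336, edgeR adjusted p = 0.937). Without butyrate replicate 3 the sign turned, to 0.33 (adjusted p = 0.0165, from a range of 0.0165 to 0.983). Rps19bp1, which encodes a nucleolar partner of that protein, had 27.2, 28.7 and 30.5 CPM with butyrate and 16.9, 22.1 and 29.5 CPM in control, with an overlap (log2 fold change 0.33, SE 0.184, edgeR adjusted p = 0.174). Without control replicate 3 its log2 fold change was 0.57 and it was called higher (0.0211, from a range of 0.0211 to 0.425).

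Rps9, named after its values were seen, had 404, 724 and 752 CPM with butyrate and 351, 662 and 645 CPM in control. Replicate 1 was low in both groups (log2 fold change 0.18, SE 0.278, edgeR adjusted p = 0.621). Each butyrate library stood above the control library of the same number. With the replicate block the adjusted p was 0.0705, still without a call. In all, 6 of 72 members with at least 10 CPM (8.33%) had a library at least 1.5-fold from the nearest other library of its group, against 6.67% of all tested genes at that level. They included Rpl8, Rps9, Rps19 and Rps27l.

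The stalk of the large subunit, which recruits the elongation factors, is built from Rplp0, Rplp1 and Rplp2. Rplp2 had 43.6, 41.8 and 43.4 CPM with butyrate and 31.5, 36.5 and 30.3 CPM in control, without overlap (log2 fold change 0.39, SE 0.103, edgeR adjusted p = 0.0136). Rplp0 had 1079.8, 1023 and 1071 CPM with butyrate and 914, 946 and 907 CPM in control, and Rplp1 had 738, 675 and 704 CPM and 629, 609.7 and 588 CPM. Both kept the groups apart but did not pass (log2 fold change 0.20 and 0.21, SE 0.0789 and 0.0807, edgeR adjusted p = 0.068 and 0.0576), and with the replicate block Rplp1 passed at 0.0461, from a range of 0.0159 to 0.154. DESeq2 (0.042), the stricter filter (0.0417) and upper quartile scaling (0.0181) called Rplp0 higher, from a range of 0.0181 to 0.167. The same settings, and total-count scaling, also called Rplp1.

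Among genes with roles beyond the ribosome, Rpl22 and Rpl13a rose. Rpl22, which is needed for the development of alpha-beta T cells in mice, had 285, 271 and 295 CPM with butyrate and 210.3, 192 and 189.8 CPM in control (log2 fold change 0.52, SE 0.081, edgeR adjusted p = 0.000985). The paralog Rpl22l1 had 64.4, 73.9 and 70.2 CPM with butyrate and 62.3, 58.8 and 57.6 CPM in control, where the groups came close and the test was not passed (log2 fold change 0.22, SE 0.0879, edgeR adjusted p = 0.0649). It was called without butyrate replicate 1 (0.04), with upper quartile scaling (0.0205) and with the stricter filter (0.0431), from a range of 0.0205 to 0.194. Rpl13a, whose protein can leave the ribosome to silence inflammatory mRNAs, had 261, 292 and 320.1 CPM with butyrate and 194, 223 and 236 CPM in control, again without overlap (log2 fold change 0.42, SE 0.106, edgeR adjusted p = 0.0113).

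Rpsa, known also as a laminin receptor, had 661, 617 and 619 CPM with butyrate and 517, 528 and 476 CPM in control (log2 fold change 0.32, SE 0.0828, edgeR adjusted p = 0.0129, and 0.0503 without control replicate 3, from a range with its lowest value at 0.00259). Rps6, the main substrate of the S6 kinases, had 55.5, 68.9 and 71.0 CPM with butyrate and 45.4, 54.2 and 55.3 CPM in control. The lowest treated library just exceeded the highest control, and the test was missed (log2 fold change 0.34, SE 0.123, edgeR adjusted p = 0.0507), while with the replicate block the adjusted p was 0.00695, the lowest of a range that ended at 0.149. Rps27a, made as a fusion of ubiquitin and a ribosomal protein, had 22.4, 25.1 and 27.5 CPM with butyrate and 20.9, 21.5 and 22.4 CPM in control and did not pass (log2 fold change 0.21, SE 0.118, edgeR adjusted p = 0.174).

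Of the catalytic and exit tunnel proteins, Rpl3 and Rpl39 rose by small amounts and Rpl10 did not pass. Rpl3, near the peptidyl transferase centre, averaged 239 ± 4.4 CPM with butyrate and 197 ± 4.48 CPM in control (SD, n = 3 each, log2 fold change 0.27, edgeR adjusted p = 0.0136, and 0.0535 without control replicate 3, from a range with its lowest value at 0.00394). Rpl39, which lines the tunnel exit, averaged 163 ± 2.51 CPM with butyrate and 139 ± 5.52 CPM in control (log2 fold change 0.23, adjusted p = 0.0302). Rpl10, which joins the large subunit last, had 34.2, 45.2 and 42.3 CPM with butyrate and 35.1, 34.7 and 42.5 CPM in control, with the groups mixed (log2 fold change 0.12, edgeR adjusted p = 0.508).

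Rps4x, the X-linked small subunit gene, averaged 479 ± 16 CPM with butyrate and 404 ± 15.2 CPM in control (log2 fold change 0.25, edgeR adjusted p = 0.029). The calls of Rpl39 and Rps4x were each lost in 5 of the 6 fits that left out a library, with adjusted p of up to 0.104 and 0.0942. For Rpl39 the exception was the fit without control replicate 1, and for Rps4x the fit without butyrate replicate 3. The fitted changes in those fits ran from 0.21 to 0.27 for Rpl39 and from 0.22 to 0.28 for Rps4x. With no filter both calls were also lost (edgeR adjusted p = 0.101 for Rpl39 and 0.0763 for Rps4x). DESeq2 did not call Rpl39 either (adjusted p = 0.0566).

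As a group the tested paralogs and retrogenes were near the core genes. Of the 11, 7 were tested, and edgeR's adjusted p called 4 of these (57.1%) higher and 0 lower, against 23.5% and 22.5% of all genes tested. At an unadjusted p under 0.05, 6 were higher and 0 lower, against 3223 and 3075 of all 11740 genes tested. Their median log2 fold change was 0.28, while the core genes had 55.8% higher and a median of 0.31. Rpl7l1, which acts in early large subunit assembly, had 175, 176 and 193 CPM with butyrate and 124, 138 and 129 CPM in control (log2 fold change 0.48, SE 0.0823, edgeR adjusted p = 0.00174). Rpl36al averaged 224 ± 9.08 CPM with butyrate and 185 ± 16.6 CPM in control (log2 fold change 0.28, edgeR adjusted p = 0.0296). The call of Rpl36al was lost in 4 of the 6 fits without a library (butyrate 2 or 3, control 1 or 2) and with no filter (0.0676). Its parent Rpl36a, among the least abundant core genes, had 6.29, 5.16 and 4.25 CPM with butyrate and 2.52, 2.78 and 4.22 CPM in control, just without overlap, and did not pass (log2 fold change 0.71, SE 0.284, edgeR adjusted p = 0.0701). It passed without control replicate 3 (0.98, adjusted p = 0.0366) and with upper quartile scaling (0.0469), from a range of 0.0366 to 0.2.

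Rps27l, a p53 target gene, had the largest fitted change of all members without passing the test. It stood at 15.2, 102 and 33.4 CPM with butyrate and at 12.6, 17.8 and 20.3 CPM in control. The groups overlapped, since butyrate replicate 1 was within the control range and replicate 2 far above it (log2 fold change 1.57, SE 0.583, edgeR adjusted p = 0.0536). The log2 fold change was 0.52 without butyrate replicate 2 (adjusted p = 0.253) and 1.33 with the replicate block (0.0118). Without butyrate replicate 1 it passed at 0.00613, the lowest of a range that ended at 0.253.

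The 4 untested members were paralogs. Rpl10l, Rpl3l and Rps23rg1 had 0 counts in all 6 libraries, where 3 counts, the limit that a count of 0 allows, correspond to 0.487 to 0.556 CPM (a limit of counting error only). Rpl39l had 3, 4 and 0 counts with butyrate and 3, 5 and 3 in control, which is too few to compare.

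Core genes differed widely in level. Mean levels per transcript length ran from 6.91 to 2327 CPM per kb, a ratio of 337, with a median of 72.8. Rpl41 stood at 2507 CPM per kb with butyrate and 2148 in control, and Rpl8 at 2022 and 1594. Of the least abundant core genes, Rpl38, whose protein is needed for translation of Hox mRNAs in mouse embryos, had 1.85, 2.75 and 3.33 CPM with butyrate and 2.88, 2.78 and 1.78 CPM in control (log2 fold change 0.10, SE 0.333, edgeR adjusted p = 0.823).

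The counting of reads shared between copies bears on these levels. For each gene 1 transcript was scored, the one matched to RefSeq with a length nearest the median. The percent of its 50-base windows that also occur in another gene's transcripts was 2.96 for Rps3, 7.86 for Rpl8 and 16.5 for Rpl4. The 8 core genes with under 25% of windows shared had a median of 608 CPM per kb, against 55.8, 129 and 48.5 CPM per kb in the 28, 21 and 20 genes with 25 to 50%, 50 to 75% and at least 75% shared. A long annotated transcript can lower both the percent and the level per kb, and among the 8 genes the length reached 5179 bases. Across the 77 core genes Spearman's rho between level per kb and windows shared was -0.21, and between log2 fold change and windows shared -0.05, for points that share the same 6 libraries. Genes with under 50% shared had a median log2 fold change of 0.32 and 21 of 36 higher, and the others 0.31 and 22 of 41 higher.

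**Figure D5:**
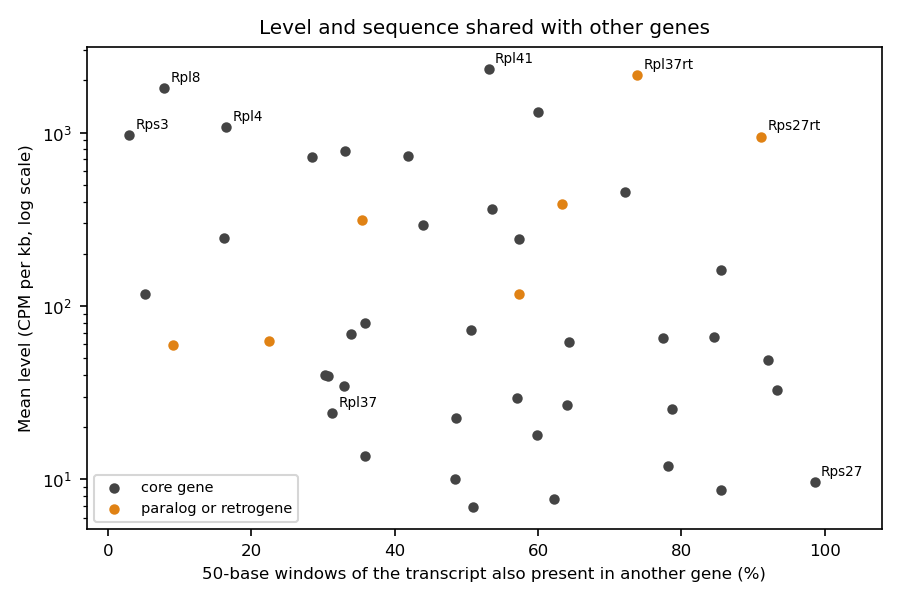
Mean level over all 6 libraries in CPM per kb (y axis, log scale) against the percent of 50-base windows that also occur in another gene (x axis), for core genes (dark) and paralogs or retrogenes (orange) named in the text. The most abundant genes with few shared windows, Rps3, Rpl8 and Rpl4, lie top left, and Rps27 lies low at the far right while its retrogene Rps27rt lies high.

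In several pairs the copy held more counts than its parent. Rps27 averaged 4.81 CPM with butyrate and 3.77 CPM in control, while the retrogene Rps27rt averaged 369 and 339 CPM, and neither passed (edgeR adjusted p = 0.262 and 0.27). Rpl37 averaged 21.6 CPM with butyrate and 18.6 CPM in control, while the retrogene Rpl37rt averaged 960.4 and 787 CPM and rose (log2 fold change 0.29, edgeR adjusted p = 0.0157). Parent and copy summed to 374 ± 20.6 CPM with butyrate and 343 ± 20.5 CPM in control for Rps27, and to 982 ± 25.6 and 806 ± 16.8 CPM for Rpl37, ratios of 1.09 and 1.22. Other summed pairs, Rpl32 with Rpl32l, Rpl34 with Rpl34-ps1, Rpl6 with Rpl6l and Rpl17 with Rpl17-ps10, had ratios of 1.21, 1.36, 1.27 and 1.32. Rps27a with Rps27a-ps3 and Rpl36 with Rpl36-ps12 had ratios of 1.12 and 1.18, and neither parent nor copy was called in these pairs. The labels and notes do not state how reads shared by such copies were assigned, which leaves the split within a pair uncertain.

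The pair Rps27 and Rps27rt is shown because almost all windows of Rps27 (98.6%) occur elsewhere, and the transcripts begin with much the same letters. The lines run from 30 before to 20 after the RefSeq GRCm38.p6 start, with the longest run of C or T within 5 bases of the start in capitals, and where runs are equally long the first of them. In Rps27rt a second run of the same 6 bases in length begins at the start itself and is not in capitals.
Rps27, chr3:90213629-90213678, minus strand: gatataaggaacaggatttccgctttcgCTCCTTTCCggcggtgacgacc
Rps27rt, chr9:114982720-114982769, minus strand: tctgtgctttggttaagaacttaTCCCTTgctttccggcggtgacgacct
The longest stretch shared by the RefSeq promoter entries of this pair near the start measured 38 bases.

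Gene structure was compared with the change as well. Of all genes tested 23.5% were higher and 22.5% lower. Of the 30 core genes that host a small nucleolar RNA within the gene, 22 were higher (73.3%), and of the 47 others 21 (44.7%). Their median log2 fold changes were 0.32 and 0.30. Calls also differed with level, as 24 of the 33 core genes of at least 100 CPM were higher (72.7%) and 19 of the 44 others (43.2%). The part of level in the difference between hosts and others was not tested. The 23 core genes with transcripts of at least 1000 bases had a median of 0.42 with 18 higher, and the 54 shorter ones a median of 0.28 with 25 higher. Other genes with transcripts under 1000 bases had a median of 0.11, with 26.2% higher and 12.3% lower.

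Each gene was also read relative to the summed core genes, of whose CPM the 5 most abundant held 40.7%. This scaling lowers the median of all genes tested to a log2 fold change of -0.38 and that of the core genes to -0.07. On that scale edgeR's adjusted p called 8 members (9.41%) higher and 1 (1.18%) lower, against 11.5% and 50.2% of all genes tested. The share of higher members was near that of all genes tested. Since this scaling sets the summed core genes to no change, that share follows in part from its construction. Those farthest up were Rps10 (log2 fold change 0.98, adjusted p = 0.0454), Rpl5 (0.85, 0.000197), Rpl31 (0.50, 0.00525), Rpl27 (0.45, 0.0328) and Rpl15 (0.38, 0.0122). Rpl23, Rpl27a and Rpl10a were the other 3 that were higher, at 0.32, 0.32 and 0.30.

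Of the ribosomal protein genes outside the rule, Rack1 rose and Fau did not pass the test. Rack1, a scaffold on the small subunit head, had 2529.7, 3658 and 3556 CPM with butyrate and 1749, 1488 and 1511 CPM in control (log2 fold change 1.04, SE 0.149, edgeR adjusted p = 0.000682). Fau, whose product is cut to release a small subunit protein, had 7.40, 9.28 and 7.58 CPM with butyrate and 8.64, 6.68 and 8.60 CPM in control, an overlap with no call (log2 fold change 0.02, SE 0.193, edgeR adjusted p = 0.941).

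Genes that work with ribosomal proteins were compared by their counts beside all genes tested, of which 23.5% were higher and 22.5% lower. Of all 11740 genes, 3223 were higher and 3075 lower at an unadjusted p under 0.05, and 27.4% and 26.4% with the replicate block. Of 19 other TOP mRNA and elongation genes 8 (42.1%) were higher and 0 lower (10 and 0 at an unadjusted p under 0.05, and 11 and 0 with the replicate block), with a median log2 fold change of 0.27. Eef2, the translocation factor, averaged 6051 ± 388 CPM with butyrate and 4374 ± 129 CPM in control (log2 fold change 0.47, edgeR adjusted p = 0.00381), and Eef1g averaged 374 ± 16.3 and 280.3 ± 7.06 CPM (0.41, 0.00252). Of 28 chaperone and subunit assembly genes 8 (28.6%) were higher and 0 lower (10 and 0 unadjusted, and 10 and 0 with the block), with a median of 0.20. Their share of higher genes was near that of all genes tested. The higher ones included Bysl, of small subunit maturation, at 76.6 CPM with butyrate and 58.8 CPM in control (0.38, 0.00562), and Mrto4, of stalk assembly, at 29.9 and 21.3 CPM (0.49, 0.00983).

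Among regulators and initiation factors the shares of called genes without the block were near those of all genes tested. Of 18 TOP mRNA regulators and S6 kinase genes 3 (16.7%) were higher and 5 (27.8%) lower, with a median of 0.04, and 5 and 5 with the replicate block. Myc, a transcription factor that drives ribosome production, averaged 860.1 ± 97.9 CPM with butyrate and 279 ± 14.6 CPM in control (log2 fold change 1.63, edgeR adjusted p = 2.9e-05). Larp1, which binds TOP mRNAs, averaged 581 ± 70.1 CPM with butyrate and 428 ± 31.4 CPM in control (log2 fold change 0.44, edgeR adjusted p = 0.01), while Rptor, a subunit of the mTOR complex, averaged 45.9 and 65.4 CPM (-0.51, 0.0041) and Tial1 61.1 and 83.4 CPM (-0.45, 0.00217). Of 27 initiation factor genes 5 (18.5%) were higher and 5 (18.5%) lower, with a median of 0.18. With the block 10 were higher (37%) and 5 lower (18.5%), against 27.4% and 26.4% of all genes tested. Eif3d averaged 156 CPM with butyrate and 102 CPM in control (0.62, 0.00235) and Eif3b 244 and 197 CPM (0.31, 0.0124). Eif4g3 averaged 85.1 CPM with butyrate and 125 CPM in control (-0.56, 0.00135) and Eif2b5 49.7 and 65.9 CPM (-0.41, 0.0091).

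Mitochondrial ribosomal protein genes, the counterparts in the organelle, were higher in 19 (24.7%) and lower in 5 (6.49%) of 77 tested, with a median of 0.19. Mrpl28 averaged 110 ± 17.6 CPM with butyrate and 66.4 ± 6.07 CPM in control (log2 fold change 0.73, edgeR adjusted p = 0.002), and Mrpl10 averaged 156 and 119.6 CPM (0.38, 0.00292). Mrpl54 averaged 38.6 CPM with butyrate and 57.5 CPM in control (-0.58, 0.00076), and Mrpl57 59.1 and 82.7 CPM (-0.49, 0.00461). Their share of higher genes was near the 23.5% of all genes tested, while their share of lower genes was under the 22.5% of all genes tested. The fitted change was positive for 53 and negative for 24. With the replicate block 22 (28.6%) were higher and 6 (7.79%) lower, against 27.4% and 26.4% of all genes tested. The difference from the cytosolic genes was not tested.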

How the data were processed

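The authors deposited 1 table of raw counts, with a row per gene. Per the submitters' processing notes CASAVA, TopHat, Picard, featureCounts, Subread and edgeR were used with mm10; the sources used here give no roles, parameters, strand setting or handling of multiply matching reads. Of 27179 rows, 25275 were named from RefSeq (GRCm38.p6) and 18 from GENCODE. Members and lists were chosen with earlier results of these data known, and shared windows, promoter letters and libraries standing apart were described after the data were seen.

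Treated and control libraries were compared in R 4.3.3 with edgeR 4.0.16 (glmQLFit, glmQLFTest), after TMM scaling and filterByExpr, with Benjamini-Hochberg adjustment over 11740 genes, and genes with an adjusted p under 0.05 were called. The fit was run on simulated counts with the same variability for all genes and no pairing of replicates. Those settings are simpler than these data, so that run does not measure the fit's error here. Values are TMM-scaled CPM, with SD over n = 3. Replicates within a group varied beyond counting noise. Counts carry no molecular identifiers here, so limits cover counting error only. Levels per kb used the median length of GENCODE transcripts matched to RefSeq.

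Named members are the 6 with the largest called rises and falls (no member was called lower), the 5 most and 3 least abundant, a panel of 26, Fau and Rack1, and those farthest from the summed core genes. Some genes that this rule takes are counted but not reported here by name. List genes are up to 2 called per direction with the smallest p. After removal of group means, libraries of the same replicate number correlated at 0.362, 0.197 and 0.353 over 11740 genes, so the numbers pair the libraries and the block is given beside calls it changes and counts it moves. Alternatives were scaling by total counts, upper quartile, RLE, TMM without members or the summed core genes; no filter or one of 5 CPM in 3 libraries; limma voom (3.58.1), DESeq2 (1.42.0) and robust edgeR; the block; and each library left out.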

Additional observations from a re-analysis of the deposited data

Results flagged for a closer look

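Of 36 pseudogene rows of ribosomal protein genes, which are not members, 25 held counts in at least 1 library. Some of them enter the sums of parent and copy. All 36 together took 0.162%, 0.153% and 0.154% of the counts in the butyrate libraries and 0.127%, 0.127% and 0.12% in the control libraries (means of 0.157% and 0.125%, a ratio of 1.25), above the level in the controls in all 3 libraries. Reads of parent genes that match these copies cannot be told apart from transcripts of the copies.

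Rps4l, a transcribed pseudogene related to Rps4x, averaged 7.93 ± 0.62 CPM with butyrate (7.21, 8.25 and 8.32) and 3.27 ± 1.9 CPM in control (1.26, 3.52 and 5.03). Its log2 fold change was 1.26 (SE 0.372, edgeR adjusted p = 0.0225), and the call was lost without butyrate replicate 2 or 3 or control replicate 2, with adjusted p of up to 0.0666.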

How the results depend on the processing

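With all libraries 47 members were higher; other settings gave 37 (no filter) to 64 (upper quartile), and 30 to 41 with a library left out, with 0 lower except 1 with the replicate block. Of the 47, 26 were called in every setting other than the scaling on the summed core genes. Over all genes, fits without a library gave 2369 to 2633 higher and 2118 to 2552 lower. The core median ran from 0.29 to 0.35 and the ratio of the core share from 1.27 to 1.35 in such fits. Upper quartile scaling gave a core median of 0.39, with 3338 genes higher and 2067 lower, against 2756 and 2637.

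Scaling on the summed core genes gave 8 members higher and 1 lower, 1345 genes higher and 5889 lower, and a core median of -0.07. It turned the sign of Rpl8 (-0.02), Rpl41 (-0.16), Rpl38 (-0.28), Rps27 (-0.04), Rplp0 (-0.18), Rplp1 (-0.17), Rpsa (-0.06), Rpl11 (-0.17), Rps6 (-0.04), Rps27a (-0.17), Rpl22l1 (-0.16), Rpl36al (-0.10), Rpl3 (-0.11), Rpl10 (-0.26), Rpl39 (-0.15), Rps4x (-0.13), Rps19bp1 (-0.04) and Fau (-0.37), by its construction, since it sets the summed genes to no change. Other signs turned for Fau with no filter (-0.02) and without butyrate replicate 2 (-0.09) or control replicate 2 (-0.08), for Rps19 with upper quartile scaling (0.04) and without butyrate replicate 3 (0.33), and for Rpl38 without butyrate replicate 3 or control replicate 3 (-0.09 each). With each library left out in turn, the log2 fold change ran from -0.09 to 0.09 for Fau, from -0.29 to 0.33 for Rps19 and from -0.09 to 0.30 for Rpl38. The cause was not tested. With the block, Rpl8, Rpl9, Rplp1, Rps23, Rps27l, Rps6 and Rps7 were added to the 47.

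Members under 10 CPM, such as Rps27, Rpl38 and Rps10, rest on few counts, and copies with shared reads limit the values of single genes. How far they also limit the sums and shares was not tested, since the handling of such reads is not given.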
